A study of Mus musculus with 6 samples.

Results

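The 10 genes described here encode elastin (Eln), the fibrillins (Fbn1, Fbn2), the fibulins (Fbln1, Fbln2, Fbln5 and the fibulin-like Efemp1 and Efemp2) and the microfibril-associated glycoproteins Mfap4 and Mfap5. They were chosen by gene symbol and not by their values, and all 10 were found among the 23407 genes of the deposited table. Bulk RNA-seq covered 6 mouse dermal fibroblast libraries, of which 3 carry the label WT (wild type) and 3 the label TSP2KO, for knockout of thrombospondin-2, a matricellular protein encoded by Thbs2. The cells of both groups were isolated from back skin of mice aged 12 weeks by trypsin and collagenase treatment of the dermis and grown with serum for 3 to 5 days, which enriches but does not sort fibroblasts. RNA was prepared at passage 1. The strain, the construct of the Thbs2 allele and the number of animals per library were not stated in the labels, which name no further treatment of either group. Because the labels do not tie each library to its own animal, p-values speak only of the spread among libraries, part of which may be technical.

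Elastic fibres let skin recoil after stretching. They have a core of elastin, made from the soluble monomer tropoelastin and crosslinked by lysyl oxidases, and a mantle of microfibrils, which are built mainly from fibrillin. Fibulins bind both and help to place elastin on the scaffold: Fbln5 and Efemp2 (fibulin-4) bring elastin and lysyl oxidases together, and Fbln2 is found at the junction of elastin and fibrillin. Mfap4 and Mfap5 bind the microfibrils from outside. In the dermis these proteins are made largely by fibroblasts, while smooth muscle cells make them in vessel walls.

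The library labelled WT 3 went against its label in Thbs2 and on the first principal component, but not on the second. Thbs2 stood at 122061 normalised reads in WT 1 and 116720 in WT 2, but at 8841 in the library labelled WT 3, near the 5177, 6635 and 4891 of TSP2KO 1 to 3 (values of TSP2KO 1, 2 and 3 are given in that order throughout). The TSP2KO libraries thus kept Thbs2 reads, and whether these fall in a deleted part of the gene cannot be read from values per gene. On the first principal component of all tested genes, which held 45.4% of the variance, that library lay at 64.1, with WT 1 and WT 2 at -65.0 and -67.1 and the TSP2KO libraries between -4.05 and 51.7. That library thus lay beyond the TSP2KO range rather than within it. On the second component, with 33.8% of the variance, it lay at 47.1. WT 1 and WT 2 stood there at 37.0 and 11.1, and TSP2KO 1 to 3 at -4.2, -0.81 and -90.3. Results are therefore given with all 6 libraries, as labelled, and without the library labelled WT 3. In the latter fits WT 1 and WT 2 alone make up the WT group. That library was singled out by its values in these same data, so the fits without it are no independent support for a difference. Every direction drawn from the full WT group rests in part on the library labelled WT 3. The 10 fibroblast markers, Col3a1 the most abundant of them, were all in the table with none at 0, and summed to 212164 to 392825 normalised reads in WT and 175022 to 276256 in TSP2KO. That sum is mostly collagen: 3 of the 10 were lower in TSP2KO without overlap, against 8.27% of all genes, namely Dcn, Lum and Pdgfra, with log2 fold changes of -2.80, -3.33 and -1.46 (limma adjusted p = 0.182, 0.341 and 0.162). Without the library labelled WT 3 these were -2.96, -3.65 and -1.57 (limma adjusted p = 0.0550, 0.112 and 0.0401). S100a4, Vim and Col1a1 went the other way with all libraries, at 1.30, 0.18 and 0.08, with overlap. Without that library S100a4 stood at 1.82 (limma adjusted p = 0.0192), Vim at 0.02 and Col1a1 at -0.19. The part of these markers in the Mfap4 and Fbln2 values was not tested. The 12 keratinocyte markers, led by Krt14, summed to 1674 in WT 1, 574 in WT 2 and 42363 in the library labelled WT 3, and to 14706, 13205 and 547 in TSP2KO 1 to 3. Estimated depth lay between 14776568 and 34599944 reads per library. WT 1 and WT 2 were the deepest, at 24988424 and 34599944. The library labelled WT 3 had 18266669, and TSP2KO 1 to 3 had 20153580, 20522115 and 14776568. The part of depth in the results was not tested.

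With all 6 libraries no elastic fibre gene passed the threshold. Without the library labelled WT 3, which was singled out by its values, Mfap4 and Fbln2 were lower in TSP2KO and Eln was higher. The test was limma on log2(value + 1), a linear model per gene with variances shrunk across genes, and the threshold was 0.05 for p adjusted by Benjamini-Hochberg over the 14707 genes whose mean was at least 10 normalised reads. All 10 members met that mean. With 6 libraries 0 of 10 passed, against 0.0612% of all genes, and 2 of 10, Eln and Mfap4, had an unadjusted p under 0.05, against 9.75% of all genes. Eln was higher, as 3.66% of all genes were at that p, and Mfap4 lower, as 6.09% were. The groups did not overlap for 1 of 10, Mfap4, against 14.2% of all genes. Without the library labelled WT 3, 3 of 10 passed, against 5.17% of all genes, and 6 of 10 had an unadjusted p under 0.05, against 24.5%. The groups then did not overlap for 6: Eln was higher, against 21.1% of all genes, and Fbn1, Fbln1, Fbln2, Efemp1 and Mfap4 were lower, against 22.3%. The 10 had a median log2 fold change of -0.26 (all libraries) or -0.59 (library labelled WT 3 left out), beside -0.01 and -0.03 over all genes tested. An exact permutation test has 20 splits of 6 libraries into 3 and 3, so no p can lie below 0.1, and only Mfap4 among the 10 reached it.

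**Figure D1:**
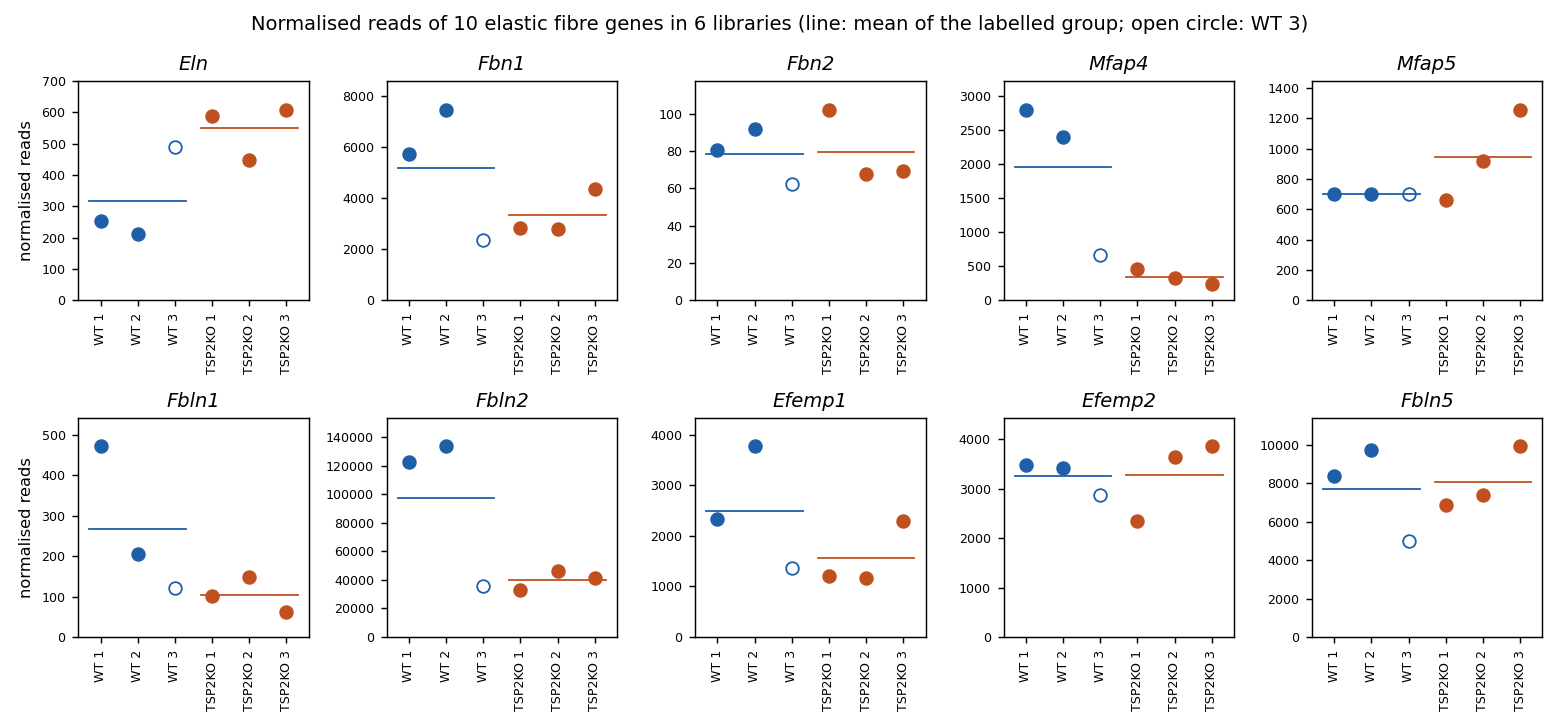
Normalised reads (vertical axes, linear, from 0) of each of the 10 genes in the 6 libraries (horizontal axes), with blue for WT, orange for TSP2KO, an open circle for the library labelled WT 3 and lines at the means of the labelled groups. For Eln, Fbln2 and Mfap4 the filled WT points stand apart from the TSP2KO points, while the open circle lies with or near the TSP2KO points.

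Eln encodes tropoelastin (chromosome 5, 134702593 to 134747323, minus strand, mm10). It had 252 normalised reads in WT 1, 210.3 in WT 2 and 489 in the library labelled WT 3. Values in TSP2KO 1 to 3 were 588, 449 and 609. WT 1 and WT 2 were the lowest of the 6, and the library labelled WT 3 lay inside the TSP2KO range, so the labelled groups overlapped. The mean was 317 ± 151 for WT and 549 ± 86.9 for TSP2KO (SD, n = 3 each), a log2 fold change of 0.88 (SE 0.33, 95% interval 0.10 to 1.66, limma adjusted p = 0.444). With the library labelled WT 3 left out, Eln rose by 1.24 on the log2 scale (SE 0.21, limma adjusted p = 0.0292), 2.36-fold. In bulk RNA, more cells that make a transcript and more transcript per cell cannot be told apart. Markers listed for smooth muscle cells and pericytes summed to 13003 to 25262 normalised reads in WT and 73159 to 161977 in TSP2KO. Smooth muscle cells also make elastin, but which cells the marker reads came from was not tested. Of these 10 markers, 6 were higher in TSP2KO without overlap, against 5.9% of all genes, and none was at 0. The sum was mostly Acta2, at 53500, 56512 and 109857 in TSP2KO 1 to 3. Myh11, Notch3, Des and Rgs5 overlapped between the groups. Des and Rgs5 had log2 fold changes of -0.05 and -0.31 with all libraries, and 0.75 and 0.41 without the library labelled WT 3. The part of these markers in the Eln result was not tested.

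Fbn1 encodes fibrillin-1, the main building block of microfibrils in adult tissue (chromosome 2, 125300594 to 125507993, minus strand). WT 1 and WT 2 had 5735 and 7450.3 normalised reads, the library labelled WT 3 had 2350.4, and TSP2KO 1 to 3 held 2839.8, 2805 and 4367. The library labelled WT 3 was the lowest of the 6, 2.81-fold under the average of WT 1 and WT 2, which were the highest. The log2 fold change was -0.51 (SE 0.43, limma adjusted p = 0.764) with all libraries. Leaving out the library labelled WT 3 gave -1.002 (SE 0.25, 95% interval -1.60 to -0.40, adjusted p = 0.0684), which missed the threshold.

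Fbn2 encodes fibrillin-2, the fibrillin known from developing tissue (chromosome 18, 58008623 to 58210487, minus strand). Its mean was the lowest of the 10, with 80.9, 91.8 and 62.2 normalised reads in WT 1, in WT 2 and in the library labelled WT 3. It stood at 102.3, 67.7 and 69.4 in TSP2KO 1 to 3. The groups overlapped throughout. The log2 fold change was 0.02 (95% interval -0.65 to 0.69, limma adjusted p = 0.988), and -0.14 (-0.82 to 0.55) without the library labelled WT 3. Differences inside those intervals, in either direction, remain compatible with the values.

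Mfap4 had the largest ratio of highest to lowest library among the 10, 11.8. It encodes a microfibril-associated glycoprotein of the fibrinogen-like family that binds tropoelastin and fibrillin (chromosome 11, 61485431 to 61488900, plus strand). WT 1 and WT 2 had 2793 and 2398 normalised reads, the library labelled WT 3 had 663, and TSP2KO 1 to 3 held 459, 331 and 236. All 3 WT libraries lay above all 3 TSP2KO libraries, and the library labelled WT 3 was 3.92-fold below the mean of the other two. The mean was 1951 ± 1133 for WT and 342 ± 112 for TSP2KO (SD, n = 3 each). On the log2 scale the difference was -2.31 (SE 0.55, limma adjusted p = 0.222), 4.97-fold. The exact two-sided permutation test gave p = 0.1, the smallest possible for 3 against 3. Without the library labelled WT 3, Mfap4 fell by 2.97 on the log2 scale (SE 0.29, adjusted p = 0.00988), 7.83-fold. The gene overlaps Mapk7 on the opposite strand, whose values lay between 574 and 720.0 normalised reads in all 6 libraries, and no source used here gives the strand setting used in counting, so reads may have been shared.

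Mfap5 encodes the microfibril-associated glycoprotein MAGP-2 (chromosome 6, 122505845 to 122529290, plus strand). The WT libraries were nearly equal, with 704, 700.2 and 702 normalised reads in WT 1, in WT 2 and in the library labelled WT 3. TSP2KO 1 to 3 held 662, 917 and 1258. The first of these lay below every WT library and the other two above, so the groups overlapped and the spread within TSP2KO (SD 299) was far wider than within WT (SD 1.92). A log2 fold change of 0.38 was found with and without the library labelled WT 3 (SE 0.25 and 0.27, limma adjusted p = 0.698 and 0.445).

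Among the fibulins, Fbln2 was by far the most abundant (chromosome 6, 91212455 to 91272540, plus strand). WT 1 and WT 2 had 122662 and 133626 normalised reads, and the library labelled WT 3 had 35737. Values in TSP2KO 1 to 3 were 33148, 46425 and 41157. The library labelled WT 3 lay inside the TSP2KO range, 3.59-fold under the average of WT 1 and WT 2, and no TSP2KO library came near those. The mean was 97342 ± 53632 for WT and 40244 ± 6685 for TSP2KO (SD, n = 3 each), a log2 fold change of -1.07 (SE 0.51, limma adjusted p = 0.570). With the library labelled WT 3 left out, Fbln2 fell by 1.68 on the log2 scale (SE 0.26, adjusted p = 0.0208), 3.21-fold.

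Fbln1 encodes fibulin-1, a protein of elastic fibres and basement membranes (chromosome 15, 85205949 to 85286535, plus strand). It had 471, 206 and 122 normalised reads in WT 1, in WT 2 and in the library labelled WT 3. It stood at 100.5, 149 and 62.3 in TSP2KO 1 to 3. WT 1 and WT 2 were again the highest, though WT 1 stood well above WT 2, and the library labelled WT 3 lay inside the TSP2KO range. The log2 fold change was -1.21 (SE 0.53, limma adjusted p = 0.521) with all libraries and -1.66 (SE 0.47, adjusted p = 0.0863) without that library. Neither passed the threshold.

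Efemp1 encodes fibulin-3, which in mice supports elastic fibres of fascia (chromosome 11, 28853204 to 28926743, plus strand). WT 1, WT 2 and the library labelled WT 3 had 2323, 3769 and 1372 normalised reads, and TSP2KO 1 to 3 held 1204, 1164 and 2297. TSP2KO 3 came within 1.01-fold of WT 1, and the other TSP2KO libraries lay below the library labelled WT 3. Efemp1 had a log2 fold change of -0.63 (SE 0.42, limma adjusted p = 0.702), and -1.003 (SE 0.35, adjusted p = 0.143) without the library labelled WT 3.

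Efemp2, fibulin-4, and Fbln5, fibulin-5, are the fibulins whose loss in mice disrupts elastic fibres most broadly, and neither differed beyond the spread. Efemp2 (chromosome 19, 5473954 to 5482517, plus strand) had 3490.3, 3425 and 2867 normalised reads in WT 1, in WT 2 and in the library labelled WT 3. TSP2KO 1 to 3 held 2355, 3640.2 and 3860. Its log2 fold change was -0.02 (95% interval -0.56 to 0.53, limma adjusted p = 0.987). Its span overlaps Mus81 on the opposite strand, at 204 to 316 normalised reads, so shared reads cannot be told apart there either. Fbln5 (chromosome 12, 101746565 to 101819055, minus strand) had 8353, 9706 and 4977 in WT 1, in WT 2 and in the library labelled WT 3. Values in TSP2KO 1 to 3 were 6882, 7403 and 9912. Lowest of the 6 was the library labelled WT 3, and the other WT libraries lay within the TSP2KO range. The log2 fold change of Fbln5 was 0.11 (-0.58 to 0.79, adjusted p = 0.943) and turned to -0.18 (-0.70 to 0.35) without the library labelled WT 3.

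**Figure D2:**
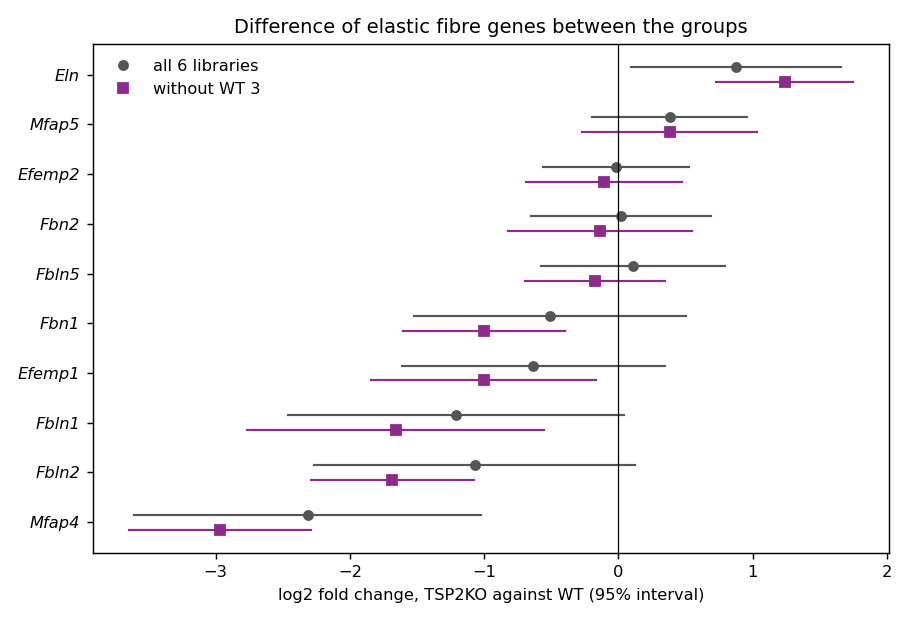
Log2 fold change of TSP2KO against WT (horizontal axis) with its 95% interval for each of the 10 genes, for all 6 libraries (grey circles) and without the library labelled WT 3 (purple squares). The intervals of Eln and Mfap4 lie clear of 0 in both fits, and only the fit without that library puts Eln, Fbln2 and Mfap4 past the adjusted threshold.

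Fbn1, Fbln1, Fbln2, Efemp1 and Mfap4 shared a pattern, with WT 1 and WT 2 above all other libraries, and the upstream sequences of the first 4 of these, which matched the RefSeq promoter table, are shown. Of the 10 genes, 6 matched (Fbn1, Fbln1, Fbln2, Fbln5, Efemp1 and Efemp2), and Eln, Fbn2, Mfap4 and Mfap5 did not. Each sequence is the 250 bases before the RefSeq transcript start, 5′ to 3′ on the strand of the gene (RefSeq, GRCm38.p6, the assembly of mm10). The windows are chr2:125506439-125506688 on the minus strand for Fbn1, and chr15:85205699-85205948, chr6:91212514-91212763 and chr11:28852955-28853204 on the plus strand for Fbln1, Fbln2 and Efemp1. The RefSeq start used lies 1555 bases from the start of the GENCODE gene for Fbn1, 309 for Fbln2, 1 for Efemp1 and 0 for Fbln1, and the table holds 2 windows for Fbln1, of which 1 is shown. Capitals mark every match, on either strand, to the GC box GGGCGG, the TATA box TATAAA, the CCAAT box CCAAT, the AP-1 site TGANTCA or the TEAD site GGAATG.
Fbn1: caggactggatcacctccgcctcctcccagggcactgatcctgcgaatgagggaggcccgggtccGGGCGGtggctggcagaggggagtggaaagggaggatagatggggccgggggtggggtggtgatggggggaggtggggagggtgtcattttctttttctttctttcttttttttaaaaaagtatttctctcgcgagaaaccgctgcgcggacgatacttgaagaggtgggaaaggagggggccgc
Fbln1: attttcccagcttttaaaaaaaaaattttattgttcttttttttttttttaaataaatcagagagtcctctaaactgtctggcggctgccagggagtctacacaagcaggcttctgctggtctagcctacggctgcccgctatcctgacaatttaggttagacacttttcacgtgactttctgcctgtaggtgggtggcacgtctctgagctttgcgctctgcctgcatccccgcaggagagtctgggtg
Fbln2: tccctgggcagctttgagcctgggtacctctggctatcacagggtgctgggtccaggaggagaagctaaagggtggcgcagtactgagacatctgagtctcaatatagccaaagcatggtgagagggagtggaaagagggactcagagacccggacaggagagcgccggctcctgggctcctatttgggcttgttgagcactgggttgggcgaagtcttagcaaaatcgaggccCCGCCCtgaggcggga
Efemp1: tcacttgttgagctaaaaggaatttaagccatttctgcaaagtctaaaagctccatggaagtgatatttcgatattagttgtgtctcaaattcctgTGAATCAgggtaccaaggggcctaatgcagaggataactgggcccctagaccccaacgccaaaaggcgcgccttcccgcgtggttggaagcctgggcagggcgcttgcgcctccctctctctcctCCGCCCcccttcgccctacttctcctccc
The GC box was found in the windows of Fbn1, Fbln2 and Efemp1, which 32.7% of the 32851 windows of that length in the table also hold. Efemp1 alone of the 4 held an AP-1 match, TGAATCA, 154 bases before its start, as 6.75% of all windows do. None of the 4 held the TATA box, the CCAAT box or the TEAD site, which 12.4%, 33.8% and 12.6% of all windows hold, and Fbln1 held none of the 5 motifs. No match overlapped another. A match describes letters only, and its absence says nothing beyond the window.

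The members differed in their pattern over the 6 libraries when each gene was set against its own mean. The likeness of a pair was taken as the root-mean-square difference of log2(value + 1) from the gene's mean, where 0 is an identical pattern. Fbn1 and Efemp1 were the closest pair, at 0.20, followed by Efemp2 and Mfap5 at 0.24 and by Efemp2 and Fbln5 at 0.27. Eln and Mfap4 were the farthest apart, at 1.92: Eln was lowest and Mfap4 highest in WT 1 and WT 2. In 8 of the 10 the library labelled WT 3 lay below both WT 1 and WT 2, as did 42.4% of all genes tested, and in 6 of 10 it lay inside the TSP2KO range, as did 43.6%. Only Mfap5 had it between WT 1 and WT 2, as did 18.2% of all genes.

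**Figure D3:**
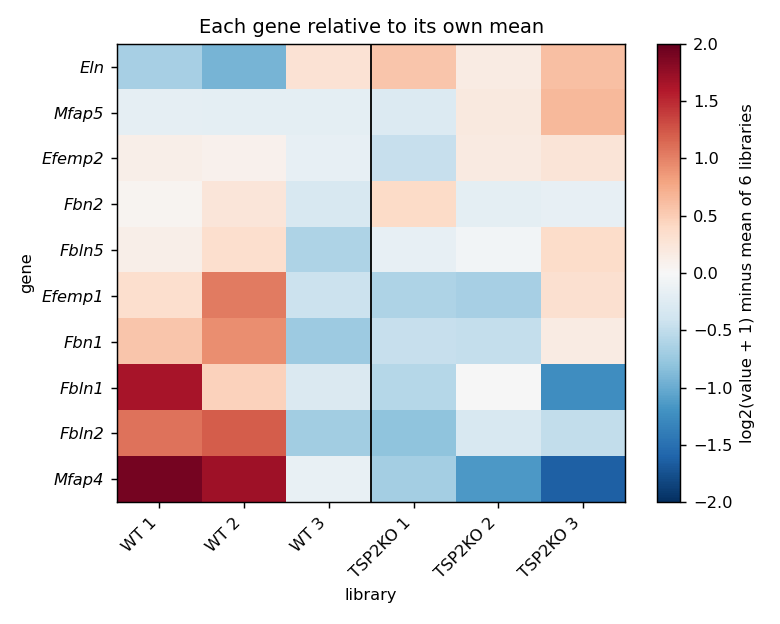
Colour shows log2(value + 1) of each gene (rows) in each library (columns) minus the mean of the gene over the 6 libraries, red for above and blue for below. Mfap4, Fbln2, Fbln1, Fbn1 and Efemp1 are red in WT 1 and WT 2, Eln is blue there, and the column of the library labelled WT 3 is like those of the TSP2KO libraries for Eln and Fbln2.

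Genes of cell division were low in the same libraries as Eln. The 16 genes of G2 and M phase summed to 3950 normalised reads in WT 1, 3851 in WT 2 and 19214 in the library labelled WT 3. Their sum stood at 15632, 12042 and 9316 in TSP2KO 1 to 3. For these genes, as for Eln and Fbln2, that library lay far from WT 1 and WT 2, and the part of cell division in those results was not tested. TSP2KO 3 had the highest Eln, Fbn1, Fbln5, Efemp1, Efemp2 and Mfap5 and the lowest Fbln1 and Mfap4 of the TSP2KO libraries. It also had the lowest depth of these and the lowest marker sums for keratinocytes (547), endothelial cells (688), melanocytes (297) and Schwann cells (2429). The same held for adipocytes (654), chondrocytes and tendon (725) and G2 and M phase (9316). Its sums were the highest of these libraries for fibroblasts (276256), smooth muscle and pericytes (161977) and macrophages (799). For skeletal muscle (477) it lay between the others. The part of any of these in the member values was not tested.

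Between genes, levels were compared per kilobase of annotated exon. Fbln2 stood first in every library, at 5204 to 20977 normalised reads per kilobase, and ranked between 10 and 76 of 22564 genes with a length. Below it Fbln5 (720.1 to 1434), Efemp1 (571 to 1850.1) and Efemp2 (622 to 1019) overlapped and had no fixed order. Mfap4 ranged from 123 to 1453 per kilobase and in rank from 362 to 4519: it was among the fibulins in WT 1 and WT 2 and lower than Fbn1 in TSP2KO 2 and TSP2KO 3. Fbn1 (194 to 614) and Mfap5 (185 to 351) overlapped as well. Eln was low, at 26.0 to 75.2 per kilobase, and its range overlapped that of Fbln1 (14.3 to 107.9). Fbn2, at 4.71 to 7.74, was the lowest in all 6 libraries. The Eln level depends on the length used: its mean was 53.5 per kilobase of merged exons and 112 with the longest transcript.

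**Figure D4:**
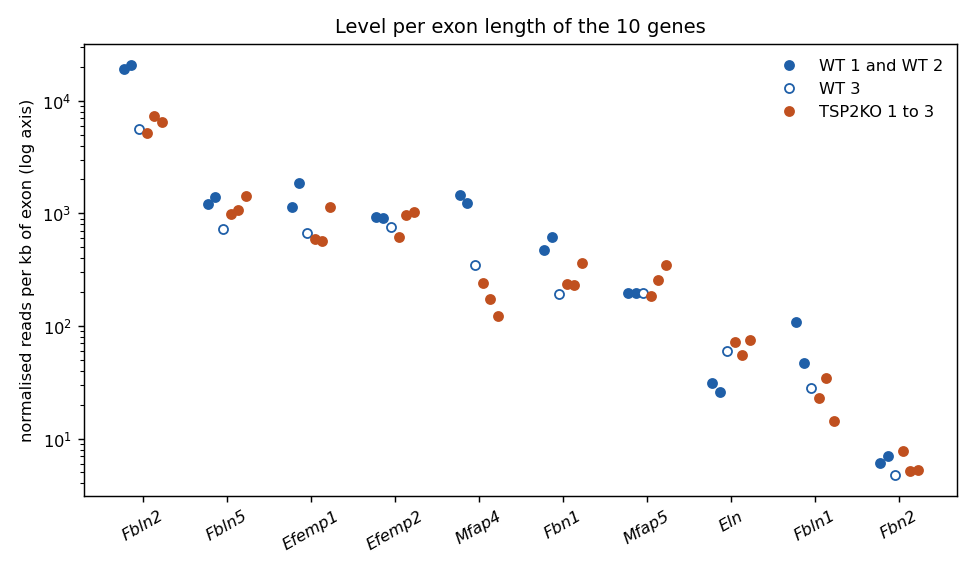
Normalised reads per kilobase of exon (vertical axis, log scale) of the 10 genes, in order of their mean, with a point for each library. Fbln2 stands above all others and Fbn2 below them in each of the 6 libraries, and of the genes between, only Mfap5 and Eln do not overlap as neighbours.

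Genes of like pattern were sought for Eln, Fbn1 and Mfap5 among 10356 genes with a mean of at least 50 normalised reads, over the 6 libraries and with the same root-mean-square measure. Nearest to Eln were Myzap (0.11), Plac9a (0.13) and Klhl18 (0.15). Plac9a had 186 normalised reads in WT 1, 203 in WT 2 and 349 to 544 in the other 4 libraries. Among the nearest to Fbn1 were Fmo5 (0.07) and Ccpg1 (0.11). Nearest to Mfap5 were Mageh1 (0.08), Pycr1 (0.09), an enzyme of proline synthesis, and Enah (0.10), an actin regulator. These likenesses are a description.

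The wider pathway comprised 46 listed genes, of which 43 were in the table and tested. None passed with all 6 libraries by limma, although 7 of 43 (16.3%, against 9.75% of all genes) had an unadjusted p under 0.05, and the groups did not overlap for 9 (20.9%, against 14.2%). Without the library labelled WT 3, 5 passed: Ltbp2 and Itga8 as higher in TSP2KO and Mfap2, Mmp12 and Ctss as lower, against 2.43% of all genes called higher and 2.75% called lower. The median log2 fold change of the 43 was -0.08, and -0.25 without that library.

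Of 19 other proteins of microfibrils and elastic fibres, 3 had an unadjusted p under 0.05 with all libraries, against 9.75% of all genes, and the 4 of smallest p were Tnxb, Ltbp2, Mfap2 and Hmcn1. Ltbp2, a latent TGF-beta binding protein homologue that associates with fibrillin, had 396, 144 and 1462 normalised reads in WT 1, in WT 2 and in the library labelled WT 3. TSP2KO 1 to 3 held 1163, 2132 and 1699.6. Within the TSP2KO range, as for Eln, lay the library labelled WT 3, and without it Ltbp2 rose by 2.75 on the log2 scale (SE 0.44, limma adjusted p = 0.0246), and with it the log2 fold change was 1.88 (SE 0.76, adjusted p = 0.480). Mfap2, which encodes MAGP-1, a microfibril protein related to Mfap5, had 881 in WT 1, 910.5 in WT 2 and 477 in the library labelled WT 3, then 466, 377 and 525 in TSP2KO 1 to 3. It fell by 0.99 on the log2 scale without the library labelled WT 3 (SE 0.20, adjusted p = 0.0417), and with it the log2 fold change was -0.68 (adjusted p = 0.512). Tnxb, tenascin-X, had 182 ± 46.6 for WT and 92.3 ± 23.7 for TSP2KO (SD, n = 3 each) with no overlap, a log2 fold change of -0.97 (SE 0.31, adjusted p = 0.346). Hmcn1, hemicentin-1, a fibulin family member, had a log2 fold change of -0.96 (SE 0.46, adjusted p = 0.575). Leaving out the library labelled WT 3 gave -1.18 for Tnxb and -1.01 for Hmcn1 (adjusted p = 0.0670 and 0.284).

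Of the 6 genes of lysyl oxidases and copper supply, 0 were called by limma with all libraries, against 0.0612% of all genes. Without the library labelled WT 3 also 0 were called, against 5.17%. An unadjusted p under 0.05 was held by 0 with all libraries, against 9.75% of all genes. Without that library 2 had one, Atp7a and Lox, against 24.5%. With all libraries those of smallest p were Atp7a, the copper transporter that loads lysyl oxidases, Loxl3, Loxl2 and Loxl1. Their log2 fold changes were -0.32 (SE 0.16), 0.89 (SE 0.48), 0.45 (SE 0.58) and -0.32 (SE 0.44). The limma adjusted p was 0.620, 0.645, 0.848 and 0.853. Without the library labelled WT 3 their log2 fold changes were -0.40, 0.71, -0.11 and -0.69 in the same order, so the sign of Loxl2 turned.

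Of 7 elastin degrading enzymes tested, 6 were lower in TSP2KO on the log2 scale, beside 7579 of all 14707 genes. With all libraries 0 passed by limma, while 3 had an unadjusted p under 0.05, against 9.75% of all genes. Mmp12, macrophage elastase, had 450.1, 367 and 234 normalised reads in WT 1, in WT 2 and in the library labelled WT 3. Values in TSP2KO 1 to 3 were 64.9, 38.6 and 12.5. The groups lay well apart, with a log2 fold change of -3.37 (SE 0.58, limma adjusted p = 0.123), and without the library labelled WT 3 it fell by 3.64 on the log2 scale (SE 0.62, adjusted p = 0.0282). Ctss, cathepsin S, had 313 ± 67.0 for WT and 47.5 ± 16.5 for TSP2KO (SD, n = 3 each), a log2 fold change of -2.74 (SE 0.34, adjusted p = 0.0750), and it fell by 2.58 on that scale, with an adjusted p of 0.0186, once the library labelled WT 3 was left out. Mmp2, gelatinase A of fibroblasts, had a log2 fold change of -1.53 (SE 0.62, adjusted p = 0.483), and Ctsl, cathepsin L, of -0.45 (SE 0.20, adjusted p = 0.519). Leaving out the library labelled WT 3 gave -2.07 and -0.48 (adjusted p = 0.0691 and 0.230). The 13 macrophage markers in the table, of 14 listed, summed to 2868 to 5703 normalised reads in WT and 652 to 799 in TSP2KO, none was at 0, and 12 of the 13 were lower without overlap, against 8.27% of all genes. Mmp12 and Ctss are also made by macrophages, and the part of those cells in their values was not tested.

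Of 11 receptors and processing genes, 0 passed with all libraries by limma and 1 had an unadjusted p under 0.05, against 9.75% of all genes. That gene, Itga8, encodes the integrin alpha8 chain of contractile mesenchymal cells, whose heterodimer binds RGD sites such as those of matrix proteins. It had 1020 normalised reads in WT 1, 506 in WT 2 and 594 in the library labelled WT 3. It stood at 2216, 2368 and 2282 in TSP2KO 1 to 3. Here the library labelled WT 3 was inside the range of the other WT libraries. Its log2 fold change was 1.76 (SE 0.27, limma adjusted p = 0.109), and without the library labelled WT 3 Itga8 rose by 1.67 on the log2 scale (SE 0.29, adjusted p = 0.0292). Of the 10 smooth muscle and pericyte markers described with Eln, 6 were higher in TSP2KO without overlap, against 5.9% of all genes. The part of these markers in the Itga8 result was not tested. Itgb8, Itga5 and Lgals3, the next by p, had log2 fold changes of -1.05, 0.66 and -0.59 (SE 0.46, 0.30 and 0.39), and of -1.13, 0.63 and -0.59 without that library.

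**Figure D5:**
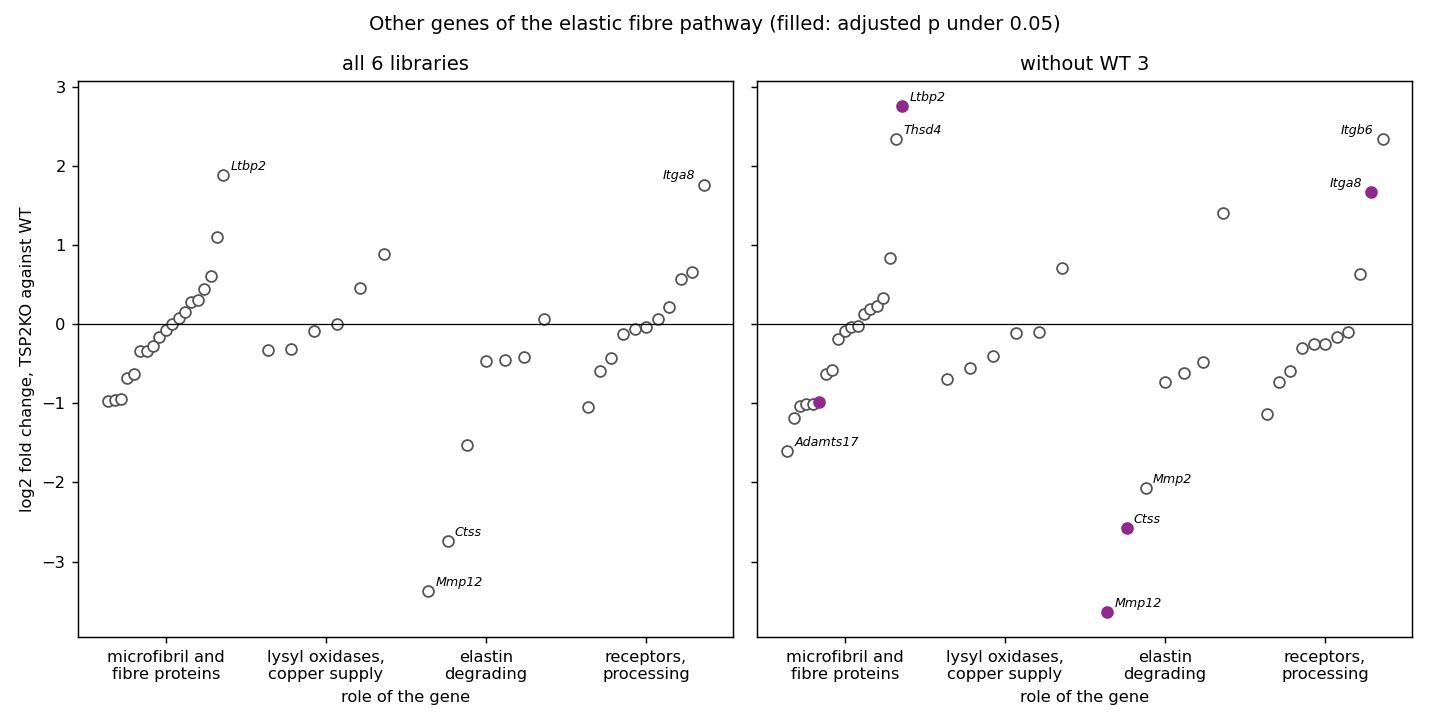
Log2 fold change of TSP2KO against WT (vertical axis) for the 43 other pathway genes by role (horizontal axis), with all 6 libraries on the left and without the library labelled WT 3 on the right; filled points passed the adjusted threshold and genes beyond 1.6 in either direction are named. No point is filled on the left, and 5 are filled on the right.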

How the data were processed

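Poly(A) RNA of 6 libraries was sequenced after a stranded library kit, per the labels' protocols. The authors deposited 1 table of normalised counts, a normalised signal per gene and library that is not whole-numbered. The submitters' processing notes name mm10 and the tools STAR, Partek and DESeq2, with no role for any. How reads were counted, with which strand setting and annotation, is not given in the sources used here. After 1 base was taken off the stop, 96.4% of genes matched GENCODE M21, which gave exon lengths. Each column was assigned to a sample by its genotype and number, since their suffixes differ from the labels. Dividing totals by the commonest value of a single read gave the estimated depth; between 67.7% and 73.2% of values above 0 lay within 0.02 of whole reads, so counts were not recovered and no count model was run.

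Values were taken as log2(value + 1) for 14707 genes with a mean of at least 10 and tested with limma 3.58.1 (R 4.3.3) with a mean-variance trend, two-sided. Fold changes on that scale understate those of low genes. The test was checked on simulated data in which noise was independent between genes and between libraries. No simulated library was made to depart from its group, so that check does not cover such a case. The members, lists and tests were chosen with earlier results of these data known. Named were all members, Thbs2, wider genes past the threshold or otherwise the 4 of smallest p per list, the 3 nearest genes by pattern and abundant markers; 1 gene of like pattern is not reported here. Alternatives were other pseudocounts, filters, scalings, variance models, library weights, a block by replicate number and leaving out each library.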

Additional observations from a re-analysis of the deposited data

How the results depend on the processing

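The calls depended on whether the library labelled WT 3 was left out and on the weights given to the libraries. The count of members past the threshold was 0 with all libraries and ranged from 0 to 3 when each library was left out in turn, reaching 3 without that library; the wider pathway ranged from 0 to 5. Over all genes the count was 9 (0 higher, 9 lower) and ranged from 0 to 761 (0 to 357 higher, 0 to 404 lower), with 761 without the library labelled WT 3 and 0 without any other. It was 0 with a pseudocount of 0.1, with no filter, with a mean of at least 100, with quantile normalisation and with the replicate block, 14 with a pseudocount of 10 and 15 without the variance trend. Estimated library weights, lowest for the library labelled WT 3 (0.262) and highest for WT 2 (4.15), called 1947 genes (853 higher, 1094 lower), 11 of the wider pathway and 5 members: Eln at 1.29, Fbn1 at -1.14, Fbln2 at -1.72, Efemp1 at -1.30 and Mfap4 at -2.62. Leaving out both the library labelled WT 3 and TSP2KO 3, chosen after seeing the data, called 1321 genes (664 higher, 657 lower), 11 of the wider pathway and the same 5 members, at 1.16, -1.21, -1.71, -1.32 and -2.73 in the same order. The cause of these shifts was not tested. Left out in turn, libraries moved the log2 fold change of Eln between 0.63 and 1.24, Fbn1 between -1.002 and -0.17, Fbln1 between -1.66 and -0.69, Fbln2 between -1.68 and -0.73, Efemp1 between -1.003 and -0.27, Mfap4 between -2.97 and -1.93 and Mfap5 between 0.15 and 0.61. Signs near 0 turned: Efemp2 was 0.063 with quantile normalisation, -0.24 without both libraries and lay between -0.15 and 0.21 with libraries left out; Fbln5 was -0.29 with weights, -0.34 without both libraries and between -0.18 and 0.30; Fbn2 was -0.041, -0.049 and between -0.17 and 0.14. No pairing by replicate number was seen: deviations of same-numbered libraries from their group mean correlated at -0.42, -0.25 and -0.40. Within a group these deviations sum to 0 for each gene, so the correlations are tied to one another and cannot exclude a pairing. The block by replicate number moved the call count from 9 to 0 and called 0 members. Lengths of the longest transcript in place of merged exons gave 112 per kilobase for Eln in place of 53.5, 1243 for Efemp2 in place of 864 and 331 for Mfap5 in place of 229.6. Fbn2 had no value with a mean of at least 100, which it does not reach.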

Other observations

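Of the pathway genes, Itgb6, Thsd4, Mmp9, Ltbp1 and Ctss were highest in the library labelled WT 3. The first 3 of these were chosen for description after their values were seen. Itgb6, an integrin chain of epithelia, held 13.4 normalised reads in WT 1, 7.45 in WT 2 and 432 in the library labelled WT 3. TSP2KO 1 to 3 held 137, 228 and 4.45. Thsd4, an ADAMTS-like protein that binds fibrillin, held 15.5 in WT 1, 9.81 in WT 2 and 174 in the library labelled WT 3, then 114.9, 100.1 and 24.9 in the TSP2KO libraries in the same order. Mmp9, gelatinase B, had 81.4, 13.3 and 557, and 289, 59.3 and 41.8. Ltbp1 had 6820, 5306 and 9966, and 7573, 5358 and 4998, in the same order. Ctss had 292, 259 and 388, and 58.0, 55.9 and 28.5. The summed keratinocyte markers were highest in the library labelled WT 3 too (42363). So were those of endothelial cells (6391), melanocytes (1797) and adipocytes (1679) and the genes of G2 and M phase (19214). The sums for fibroblasts, smooth muscle and pericytes, macrophages, Schwann cells, skeletal muscle, and chondrocytes and tendon were not highest there. The part of any of these lists in the values above was not tested. The log2 fold changes of Itgb6, Thsd4 and Mmp9 with all libraries were 0.57, 1.10 and 0.06, with limma adjusted p of 0.954, 0.800 and 0.992. Without that library they were 2.34, 2.33 and 1.40, with limma adjusted p of 0.384, 0.0931 and 0.433. Thsd4 was then higher in TSP2KO without overlap, as were 21.1% of all genes.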
